A study of Mus musculus with 6 samples.

Results

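The genes described here belong to bone morphogenetic protein (BMP) signalling in the joints and digits of the developing limb. They were chosen by name, as every probe of the deposited value table whose gene symbol is Gdf5, Gdf6, Bmp2, Bmp4, Bmp5, Bmp7 (ligands), Nog (antagonist), Bmpr1b (receptor), Msx1 or Msx2 (targets). These 10 of the 16593 genes named on the array have 13 of the 25697 probes, with 4 probes for Bmpr1b and 1 for each other gene. The study measured RNA of hindlimb buds from mouse embryos of the strain labelled SV129 at stage E12.5, obtained from matings of Pitx1+/- mice. It set 3 samples of genotype PITX1-/- (knockout, KO) against 3 of genotype PITX1+/+ (wild type, WT), with no treatment in either group, on Illumina bead arrays. The comparison asks which transcripts differ when Pitx1, a homeodomain transcription factor of the hindlimb, is missing. The labels do not describe the mutant allele nor whether embryos were pooled for a sample, so p-values measure only the spread between samples.

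BMP ligands bind pairs of type I and type II receptors on the cell surface, which activate Smad proteins that enter the nucleus and switch on genes such as the Id and Msx families. In the limb, Gdf5 is expressed in stripes where joints will form and signals largely through the type I receptor Bmpr1b. Noggin, the product of Nog, binds BMP ligands outside the cell and is needed for joints to form. Between the digits, Bmp2, Bmp4 and Bmp7 are expressed together with Msx1 and Msx2 in tissue that is later removed by cell death.

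Intensities are in arbitrary units and can lie below 0 after background subtraction. A probe was taken as above background at over 14.3 units, and 13720 probes that exceeded it on 3 or more of the 6 arrays were tested. Pitx1 itself averaged 76.5 ± 1.6 units in KO and 139.6 ± 14.7 units in WT (SD, n = 3 each). It was lower by a log2 fold change of -0.51 (adjusted p = 0.038, limma), and lost this call when any array other than KO replicate 1 was left out (adjusted p of 0.063 to 0.295). Of all probes tested, 30 (0.219%) passed an adjusted p of 0.05, 21 of them (0.153%) lower and 9 (0.0656%) higher in KO. The limb mesenchyme markers had 10 of 12 genes tested, with summed intensities of 11526 to 13169 units in KO and 11834 to 12209 units in WT, and Tbx18 was below background on every array. This list holds Pitx1, its only call, and the member Msx1, which had 3518 to 4422 units, so the sum is not independent of the members. At an unadjusted p under 0.05 in limma, 2 of its genes were lower and 4 higher in KO, where 4.85% and 3.66% of all genes were. KO replicate 3 was unlike the rest, with a score of -22.3 on the first principal component (44.2% of the variance), where the 5 remaining arrays scored -1.4 to 8.9. Each member is therefore given with and without that array. Of the other marker lists, endothelial (14 tested), macrophage (10) and Schwann cell genes (3) had 0 calls in limma and medians of -0.07, -0.16 and -0.14. Surface ectoderm genes (17 tested) also had 0 calls, with a median of -0.10. Of 18 muscle genes tested, 8 were called lower in KO (Acta1, Mylpf, Myl4, Myh8, Tnnt1, Tnnc1, Tnnc2 and Chrng), with a median of -1.02. Of 16 erythroid genes tested, 1 was called higher in KO (Nfe2), with a median of 0.44.

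No member passed the test. Of the 9 member probes tested, which cover 8 genes, 0 passed an adjusted p of 0.05 in limma (adjusted p of 0.432 to 0.995), where 0.219% of all probes did. At an unadjusted p under 0.05, 2 of the 9 stood, Gdf5 and Nog, both lower in KO, where 4.15% of all probes were lower at that level. Without KO replicate 3 neither reached it, and the same held without WT replicate 3. In either direction, 4.98% (683) of the 13720 probes tested did without KO replicate 3 and 5.17% (710) did without WT replicate 3. With all arrays 1104 probes did, so fewer probes of the whole array reached that level when KO replicate 3 or WT replicate 3 was left out. KO and WT overlapped for every one of the 9, while they did not overlap for 13.2% of all probes tested. The log2 fold change was negative for 5 of the 9 probes, as for 47.9% of all probes, and its median was -0.08, against 0.0069 over all probes.

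**Figure D1:**
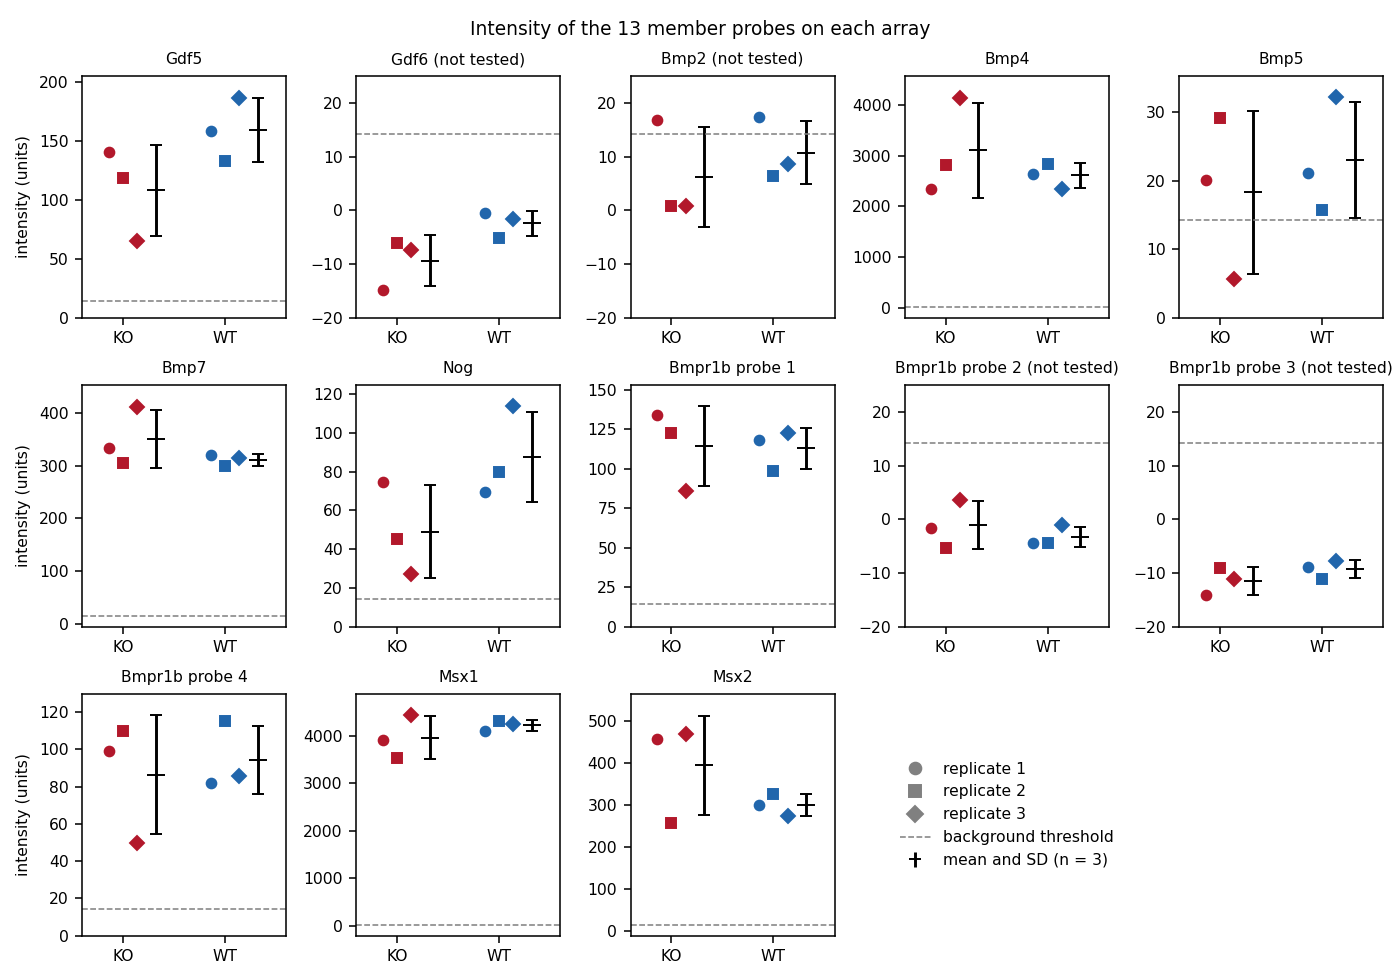
Intensity in arbitrary units (linear y axis) of the 13 member probes on the KO and WT arrays, with 1 marker shape per replicate number, the mean and SD beside each group, and the background threshold of 14.3 units as a dashed line. KO replicate 3 is the lowest array for Gdf5, Nog, Bmp5 and both tested Bmpr1b probes and the highest for Bmp4, Bmp7, Msx1 and Msx2, and the 4 probes not tested lie at or near background.

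Because Pitx1 is a homeodomain protein, the promoters of 3 members that lay far above background on all 6 arrays are shown. They run from 250 bases before to 50 bases after the gene start in RefSeq (GRCm38.p6). Capitals mark the homeodomain core TAAT on either strand (TAAT or ATTA), in which matches may overlap. The Bmp4 window is chr14:46390620-46390919, the Msx1 window is chr5:37824536-37824835 and the Msx2 window is chr13:53472731-53473030, all on the minus strand.
Bmp4: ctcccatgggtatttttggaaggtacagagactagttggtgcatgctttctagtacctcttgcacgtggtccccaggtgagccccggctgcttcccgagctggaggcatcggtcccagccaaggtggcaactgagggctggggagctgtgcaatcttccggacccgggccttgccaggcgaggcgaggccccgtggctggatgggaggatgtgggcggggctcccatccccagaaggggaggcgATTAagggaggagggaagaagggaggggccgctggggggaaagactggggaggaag
Msx1: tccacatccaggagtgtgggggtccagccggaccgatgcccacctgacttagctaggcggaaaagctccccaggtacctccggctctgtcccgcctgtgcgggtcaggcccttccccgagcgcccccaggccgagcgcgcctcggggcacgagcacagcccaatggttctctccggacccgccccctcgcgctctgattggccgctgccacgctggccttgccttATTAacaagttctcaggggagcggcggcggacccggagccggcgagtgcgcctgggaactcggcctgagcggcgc
Msx2: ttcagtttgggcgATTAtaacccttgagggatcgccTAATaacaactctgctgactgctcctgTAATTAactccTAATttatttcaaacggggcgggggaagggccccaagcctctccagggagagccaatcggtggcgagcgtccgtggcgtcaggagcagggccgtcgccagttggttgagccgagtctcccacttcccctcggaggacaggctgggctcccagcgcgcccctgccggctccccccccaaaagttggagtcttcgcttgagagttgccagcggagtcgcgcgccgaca
The core occurred 1 time in the Bmp4 window, 1 time in the Msx1 window and 5 times in the Msx2 window, and 58.32% of 27025 promoters, 1 per gene, hold at least 1. The longer motif TAATCC, a preferred site of Pitx proteins that contains the core, was found in 0 of the 7 windows listed for 5 members (Bmp4, Bmp5, Bmpr1b, Msx1 and Msx2), on either strand. It occurs in 7.160% of promoters. The motif GGCGCC, bound by Smad proteins of the BMP branch and identical on both strands, was also found in 0 of the 7 windows and occurs in 11.96% of promoters. Gdf5, Gdf6, Bmp2, Bmp7 and Nog had no sequence in the table used.

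Gdf5, the ligand that marks the future joint, had 140.8, 118.8 and 65.4 units in KO replicates 1, 2 and 3, against 159.0, 132.9 and 186.9 units in WT replicates 1, 2 and 3. The groups overlapped, since KO replicate 1 lay above WT replicate 2, and the lowest array was KO replicate 3. The mean was 108.3 ± 38.8 units in KO and 159.6 ± 27.0 units in WT (SD, n = 3 each). The log2 fold change was -0.38 ± 0.14 (SE, 95% interval -0.69 to -0.07, adjusted p = 0.510, limma). Without KO replicate 3 it was -0.19, with an interval of -0.43 to 0.05. In whole limb buds, fewer cells of a type and less RNA per cell cannot be told apart.

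The mean level of markers of cartilage cells, which condense beside the joint cells, was lowest and highest on the same arrays as Gdf5. Of 23 chondrocyte markers 13 were tested, and their mean log2 level relative to the WT mean was -0.14, -0.18 and -0.44 in KO replicates 1, 2 and 3, against -0.08, -0.10 and 0.19 in WT replicates 1, 2 and 3. For Gdf5 the same relative levels were -0.11, -0.27 and -0.74 in KO, against 0.00, -0.17 and 0.17 in WT. These arrays were KO replicate 3 and WT replicate 3. Of the 13 genes, 5 (Sox9, Col2a1, Col9a2, Matn4 and Fgfr3) were themselves lowest and highest there, while Cspg4 and Comp were highest in KO replicate 3. In that array 8 of the 13 were lowest, where 24.9% of all probes were, and 2 were highest, where 27.6% were. The share of all genes both lowest in KO replicate 3 and highest in WT replicate 3 was not counted. The mean includes Matn4, with a log2 fold change of -1.58. The median log2 fold change of the 13 was -0.04, and -0.05 without KO replicate 3, against -0.00056 over all genes with all 6 arrays. The summed intensity of the list was 3872 to 6170 units in KO and 5582 to 7961 units in WT, and Sox6, Col9a3, Matn3, Hapln1, Cnmd, Epyc and Ucma were below background on every array. The part of this list in the Gdf5 values was not tested.

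Gdf6, a close relative of Gdf5 that acts in a different set of joints, was not measurable. Its probe gave -14.8, -6.0 and -7.4 units in KO and -0.5, -5.1 and -1.6 units in WT, below the background threshold on all 6 arrays, so no difference can be read from it. Bmp2, a ligand of the interdigit and of the ridge at the limb tip, was above background on 1 KO array (16.9 units) and 1 WT array (17.3 units). Its other values were 0.9 and 0.8 units in KO and 6.3 and 8.6 units in WT, and it was not tested.

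Bmp4, a ligand of limb mesenchyme and ectoderm, had 2339, 2822 and 4140 units in KO replicates 1, 2 and 3, against 2641, 2838 and 2350 units in WT replicates 1, 2 and 3. KO replicate 3 was the highest array, KO replicate 1 was the lowest, and KO replicate 2 lay within the WT values. The mean was 3100 ± 932 units in KO and 2609 ± 246 units in WT (SD, n = 3 each). The log2 fold change of 0.21 ± 0.16 (SE, 95% interval -0.14 to 0.55, adjusted p = 0.757, limma) turned to -0.02 without KO replicate 3 (interval -0.26 to 0.22).

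Bmp7, a ligand of the interdigit and the limb ectoderm, had 334.0, 304.2 and 411.5 units in KO, against 319.6, 298.5 and 314.6 units in WT. The WT arrays lay close together, KO replicate 2 fell inside their range, and KO replicates 1 and 3 lay above it. The log2 fold change was 0.13 ± 0.10 (SE, 95% interval -0.09 to 0.36, adjusted p = 0.760) with all arrays and 0.03 without KO replicate 3. Bmp5, a ligand of early cartilage condensations and the perichondrium, was dim, with 20.1, 29.1 and 5.6 units in KO and 21.1, 15.7 and 32.2 units in WT. It was above background on 2 KO arrays and 3 WT arrays, and its difference of -0.08 ± 0.11 on the log2 scale (SE, adjusted p = 0.874) turned to 0.03 without KO replicate 3.

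Nog, the antagonist, had 74.6, 45.3 and 27.3 units in KO replicates 1, 2 and 3, against 69.7, 79.6 and 113.9 units in WT replicates 1, 2 and 3. KO replicates 2 and 3 lay below every WT array, and KO replicate 1 lay above WT replicate 1. The mean was 49.1 ± 23.9 units in KO and 87.7 ± 23.2 units in WT (SD, n = 3 each). The difference of -0.41 ± 0.14 on the log2 scale (SE, 95% interval -0.70 to -0.11) had the smallest p among the members and did not pass (adjusted p = 0.432, limma). It was -0.27 without KO replicate 3 (interval -0.55 to 0.0028), -0.29 without WT replicate 3 and between -0.55 and -0.39 without any other array. As for Gdf5, KO replicate 3 was the lowest array and WT replicate 3 the highest, as for the mean of the chondrocyte list.

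Bmpr1b, the type I receptor through which Gdf5 mainly signals, has 4 probes on the array (numbered 1 to 4 by their identifiers), of which probes 1 and 4 were tested. Probe 1 had 133.9, 122.8 and 85.7 units in KO and 118.1, 98.3 and 122.3 units in WT. Probe 4 had 99.2, 110.0 and 49.9 units in KO and 82.1, 115.3 and 85.8 units in WT. On both probes KO replicate 3 was the lowest array, and KO replicates 1 and 2 lay within or above the WT values. The log2 fold change was 0.00 ± 0.11 on probe 1 (SE, 95% interval -0.23 to 0.24, adjusted p = 0.995) and -0.09 ± 0.14 on probe 4 (interval -0.38 to 0.21, adjusted p = 0.891). Without KO replicate 3 these were 0.12 and 0.09. Probes 2 and 3 were below background on all 6 arrays, between -14.2 and 3.5 units in KO and between -11.1 and -1.1 units in WT, so for Bmpr1b the 4 probes differ in whether they detect the gene at all.

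Msx2, a homeobox target of BMP signalling in the limb tip and interdigit, had 456.8, 258.0 and 467.6 units in KO replicates 1, 2 and 3, against 299.9, 326.2 and 274.7 units in WT replicates 1, 2 and 3. KO replicates 1 and 3 lay above every WT array, while KO replicate 2 was the lowest of all 6. The mean was 394.1 ± 118.0 units in KO and 300.3 ± 25.7 units in WT (SD, n = 3 each), with a log2 fold change of 0.29 ± 0.15 (SE, 95% interval -0.04 to 0.62, adjusted p = 0.663, limma). Without KO replicate 2 the log2 fold change was 0.52 (adjusted p = 0.052), the smallest adjusted p of any member in any fit run. Without KO replicate 3 it was 0.17.

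Msx1, the related homeobox gene of distal limb mesenchyme, had 3913, 3518 and 4422 units in KO, against 4085, 4311 and 4251 units in WT. KO replicates 1 and 2 lay below the WT arrays and KO replicate 3 above them. The log2 fold change was -0.10 ± 0.10 (SE, 95% interval -0.31 to 0.12, adjusted p = 0.815) with all arrays and -0.18 without KO replicate 3. Surface ectoderm markers, a tissue that expresses Bmp4, Bmp7 and Msx2, had a mean log2 level relative to WT of -0.19, -0.07 and 0.06 in KO replicates 1, 2 and 3, against 0.06, 0.23 and -0.30 in WT replicates 1, 2 and 3. The list had 17 of 19 genes tested, summed intensities of 14388 to 15700 units in KO and 11908 to 19402 units in WT, and Perp below background on every array. The part of this tissue in the values of Bmp4, Bmp7 and Msx2 was not tested.

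KO replicate 3 was the highest or the lowest of the 6 arrays for 9 of the 9 member probes tested, as for 52.5% of all probes. It was the lowest for 5 of them (Gdf5, Bmp5, Nog and both Bmpr1b probes), as for 24.9% of all probes, and the highest for 4 (Bmp4, Bmp7, Msx1 and Msx2), as for 27.6%. Relative to the WT mean it stood at -0.74 for Gdf5 and -0.67 for Nog on the log2 scale, and at 0.66 for Bmp4 and 0.54 for Msx2. The same array had the lowest mean of the muscle markers, at -1.63, against -0.66 and -0.86 in KO replicates 1 and 2 and -0.10 to 0.12 in WT. For muscle, 18 of 23 genes were tested, with summed intensities of 2706 to 9110 units in KO and 16224 to 20209 units in WT, and Myf5, Myf6 and Ckm were below background on every array. Erythroid markers, with 16 of 20 genes tested, had means of 0.19, 0.44 and 0.47 in KO replicates 1, 2 and 3, against -0.11 to 0.09 in WT, with summed intensities of 198723 to 212639 units in KO and 181594 to 193633 units in WT. The part of muscle and blood cells in the member values was not tested. In the fits without this array the log2 fold changes of the 9 probes lay between -0.27 and 0.17. Msx1 and both Bmpr1b probes were then farther from 0 than with all arrays. They stood at -0.18, 0.12 and 0.091, against -0.10, 0.00 and -0.086, while the rest lay closer to 0. As this array was extreme for each probe, leaving it out had to move every estimate, so its part in the member values was not tested.

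**Figure D2:**
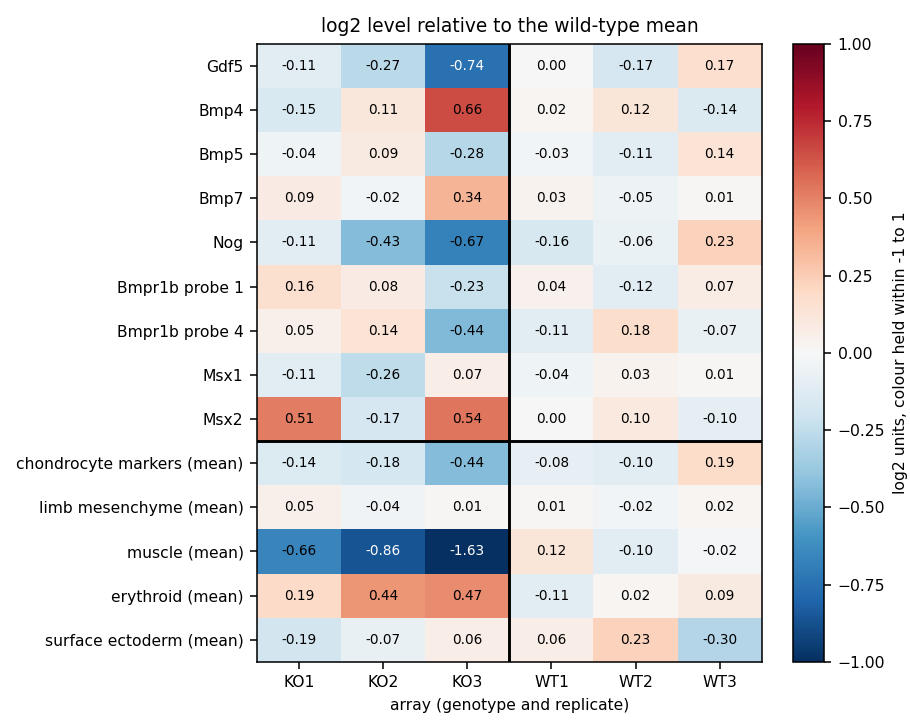
Level of the 9 tested member probes (upper rows) and mean level of 5 marker lists (lower rows) on each array, as the log2 difference from the WT mean, with KO arrays left of WT arrays and colour held within -1 to 1. Among the member rows, KO replicate 3 holds both the lowest value, -0.74 for Gdf5, and the highest, 0.66 for Bmp4, and in the list rows the muscle mean is lowest there, at -1.63, beyond the colour range, with the chondrocyte mean at -0.44.

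The intervals show how large a difference these arrays leave possible on the log2 scale used. For 6 of the 9 member probes the 95% interval of the fold change lay within 1.5-fold in either direction. Of all probes tested, dim ones included, 97.1% did. The 3 exceptions were Gdf5, Nog and Msx2. Bmp5, at 5.6 to 32.2 units over the arrays, counts among the 6. With 50 units added to the scale, a probe this dim can hardly leave 1.5-fold, so its interval sets no bound. On that scale the interval for Gdf5 ran from 0.62 to 0.95 times the WT level, for Nog from 0.61 to 0.93 times and for Msx2 from 0.97 to 1.54 times. The SE had a median of 0.14 over the 9 probes and of 0.10 over all probes. These folds are on a scale with 50 units added, which understates changes of dim probes such as Bmp5, Nog and Gdf5. It does so too for the tested Bmpr1b probes, which also count among the 6. With 16 units added in place of 50, the log2 fold change was -0.46 for Gdf5 and -0.55 for Nog. With 100 units added it was -0.30 for both. With values floored at the background threshold instead, it was -0.62 for Gdf5 and -0.93 for Nog.

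**Figure D3:**
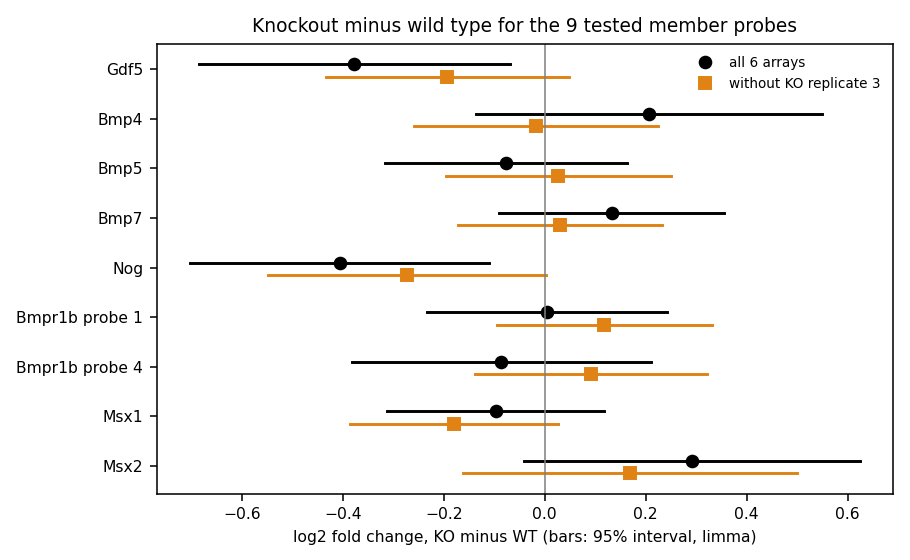
Log2 fold change, KO minus WT, of the 9 tested member probes with 95% intervals from limma, with all 6 arrays (black circles) and without KO replicate 3 (orange squares). With all arrays the intervals of Gdf5 and Nog end below 0, at -0.07 and -0.11, and without KO replicate 3 every interval includes 0.

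Other genes of the pathway were counted in 8 lists. Of 99 such genes tested, each by its brightest probe, 1 fell and 0 rose over all probes, where 0.220% of all 9539 genes fell and 0.0524% rose. The gene that fell was Matn4, of the chondrocyte list. At an unadjusted p under 0.05, 15 were lower and 4 higher in KO, where 4.85% and 3.66% of all genes were. Their median log2 fold change was -0.03, against -0.00056 over all genes.

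Among ligands outside the members, 6 of 20 listed genes were tested and 0 passed. Gdf10, a BMP3-like ligand, had 228.5, 147.0 and 78.9 units in KO and 336.2, 199.8 and 315.1 units in WT, a difference of -0.70 ± 0.20 on the log2 scale (SE, adjusted p = 0.322, limma) that was -0.45 without KO replicate 3. Without KO replicate 1 it was -0.94 and passed (adjusted p = 0.033). Bmp3, an inhibitory family member, gave -0.24 ± 0.11 (adjusted p = 0.616), and Bmp1, a procollagen protease that also cleaves chordin, gave -0.19 ± 0.09 on its brightest probe (adjusted p = 0.620) and between -0.06 and -0.03 on its other 3.

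Extracellular antagonists and modulators besides Nog had the lowest median of the 8 lists with all 6 arrays, and the ligand list had the lowest without KO replicate 3. Of 20 listed genes 12 were tested, 0 passed, and 10 were lower in KO by point estimate, with a median log2 fold change of -0.26 that was -0.12 without KO replicate 3, against -0.13 for the ligand list. At an unadjusted p under 0.05 in limma, 5 were lower and 0 higher, where 4.85% and 3.66% of all genes were. By point estimate, 47.9% of all probes were lower in KO. Htra1, a secreted protease that inhibits BMP signalling, had 111.3, 112.1 and 136.7 units in KO and 199.2, 189.2 and 152.7 units in WT. The groups did not overlap on either Htra1 probe, and the log2 fold changes were -0.39 ± 0.10 (adjusted p = 0.206) and -0.37 ± 0.11 (adjusted p = 0.322). Chrd, which encodes the antagonist chordin, had 156.6, 131.8 and 95.7 units in KO and 169.9, 183.5 and 204.1 units in WT, without overlap (log2 fold change -0.37 ± 0.11, adjusted p = 0.352). Nbl1, a DAN-family antagonist, gave -0.39 ± 0.13 (adjusted p = 0.416). The other 2 below that level, Fst (follistatin) at -0.34 ± 0.12 and Sostdc1 (a secreted BMP and Wnt inhibitor) at -0.34 ± 0.11, were named after their values were seen. So was Grem1, the antagonist that links BMP to the limb's signalling centres, which gave 0.19 ± 0.10.

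No receptor, co-receptor or Smad gene passed. Of 11 listed receptors and co-receptors 6 were tested, and 0 had an adjusted or an unadjusted p under 0.05 in limma. Acvr1, a type I receptor, gave -0.11 ± 0.09, Neo1 (neogenin, a receptor for repulsive guidance molecules) gave -0.13 ± 0.13 and Ror2, a receptor tyrosine kinase that binds Bmpr1b, gave -0.08 ± 0.09 (log2 fold change ± SE, adjusted p of 0.766 to 0.853). Bmpr2, Acvr2a, Acvrl1 and Acvr1b were below background on every array. Of 17 Smads and intracellular regulators 13 were tested and 0 passed, with a list median of -0.03. Tab1, an adaptor of the BMP-activated kinase TAK1, gave -0.21 ± 0.09 on its brightest probe (adjusted p = 0.616) and 0.01 to 0.06 on its other 3. Smurf2, a ubiquitin ligase for Smads, gave 0.23 ± 0.13. Ppm1a, a Smad phosphatase, gave -0.14 ± 0.09 on its brightest probe, and -0.007 and -0.07 on its others.

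Response genes besides Msx1 and Msx2 had the highest median of the 8 lists, 0.13, and 0.06 without KO replicate 3. Of 17 listed genes 11 were tested and 0 passed. At an unadjusted p under 0.05 in limma, 2 were higher in KO, where 3.66% of all genes were. Both were Id genes, which encode inhibitors of helix-loop-helix factors and are direct BMP targets. Id2 had 169.5, 166.8 and 147.3 units in KO and 124.2, 134.3 and 93.5 units in WT, without overlap (log2 fold change 0.31 ± 0.10, adjusted p = 0.417). Id1 had 5635, 4011 and 5717 units in KO and 3975, 4130 and 4130 units in WT (0.31 ± 0.12, adjusted p = 0.562). KO replicate 2 was below 2 of the WT arrays for Id1, and it was also the low KO array for Msx2. Id3 gave 0.27 ± 0.13 (adjusted p = 0.620).

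Joint and digit genes outside the members gave no call. Of 22 joint interzone genes 17 were tested and 0 passed, with a median of -0.10. Tgfbr2, a TGF-beta receptor of joint progenitors, had 1002, 766.3 and 546.7 units in KO and 1069, 969.9 and 1127 units in WT (log2 fold change -0.45 ± 0.15, adjusted p = 0.434), and without KO replicate 1 it passed, at -0.64 (adjusted p = 0.048). Ccn2 (connective tissue growth factor) gave -0.26 ± 0.11 and Trps1, a transcription factor gene, gave 0.24 ± 0.11 (adjusted p = 0.557 and 0.616). Of 24 digit and interdigit genes 21 were tested and 0 passed, with a median of 0.06. Aldh1a2, which makes retinoic acid in the interdigit, had 159.3, 143.9 and 124.0 units in KO and 228.0, 185.0 and 251.5 units in WT. The groups did not overlap on either of its probes, at -0.45 ± 0.11 and -0.44 ± 0.11 (adjusted p = 0.157 and 0.166). Rarb, a retinoic acid receptor, gave -0.30 ± 0.13 on its brightest probe (adjusted p = 0.591, limma). On its other tested probe Rarb gave -0.10. Sall3, a zinc finger gene of the distal limb, gave 0.48 ± 0.16 (adjusted p = 0.402). Sall3 was above background on 3 KO arrays, at 14.8, 27.7 and 70.8 units, and on 0 WT arrays, where the values were -5.4, 7.7 and 14.28 units against a threshold of 14.29. Sall3 thus entered the test only through the group in which it was high, and its p is not read as a difference. It is also among the 4 pathway genes counted as higher at an unadjusted p under 0.05.

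Of the 13 chondrocyte markers tested 1 fell, 0 rose and 12 did not pass, with a median log2 fold change of -0.04. Matn4, which encodes the matrix protein matrilin 4, had 330.7, 355.6 and 122.6 units in KO and 722.3, 751.3 and 1303 units in WT on its brightest probe, which is -1.58 ± 0.26 on the log2 scale (SE, adjusted p = 0.023, limma). The call was lost without any 1 WT array (adjusted p of 0.0775 to 0.132), and without KO replicate 3 the log2 fold change was -1.22. Its other 2 probes gave -0.92 and -0.53 (adjusted p = 0.054 and 0.260). Matn1, another matrilin, gave -0.46 ± 0.12 (adjusted p = 0.218) and Col9a2, a cartilage collagen chain, gave -0.56 ± 0.21 (adjusted p = 0.507).

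**Figure D4:**
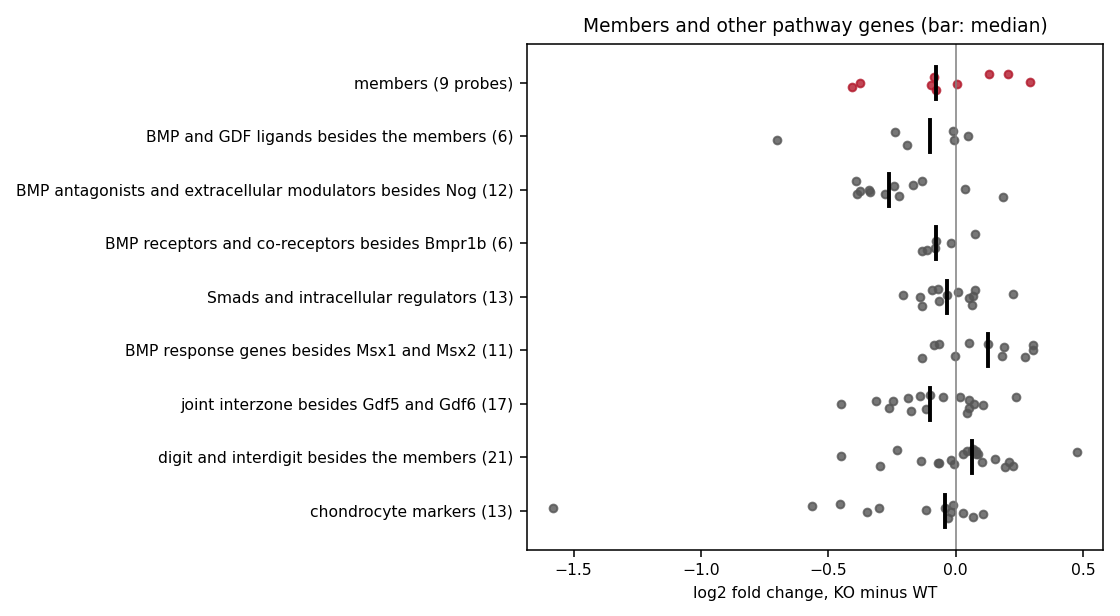
Log2 fold change, KO minus WT, of the 9 tested member probes (red) and of the tested genes of 8 pathway lists (grey, number tested in parentheses), 1 point per probe or gene, with the list median as a bar. With all 6 arrays the antagonist list has the lowest median, -0.26, the response genes the highest, 0.13, and Matn4 at -1.58 is the point farthest from 0.

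The genes whose pattern over the 6 arrays was most like that of Gdf5, outside the members, were Bag4, Zmym3, Mindy1, Ywhah and Got2, with Pearson's r of 0.997 to 0.995 on the log2 scale. Their log2 fold changes were between -0.26 and -0.15, and each was highest in WT replicate 3 and lowest in KO replicate 3. With Gdf5, Nog had an r of 0.93 and ranked 282 of 9538 genes, and Bmp4 had an r of -0.93. Over the 13 tested chondrocyte markers, r with Gdf5 ran from -0.69 (Cspg4) to 0.98 (Col9a2) with a median of 0.65, against a median of -0.01 over all genes. It was above 0.9 for 4 of them, Col9a2 (rank 22), Sox9, the chondrogenic regulator (rank 93), Matn4 (rank 354) and Col2a1 (rank 405), and below 0 for Acan, Pth1r, Comp and Cspg4. Since Col2a1 had an r of 0.904 at rank 405, at least 405 of the 9538 genes were above 0.9. These values describe 6 arrays that share the genotype difference and the distance of KO replicate 3.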

How the data were processed

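Per the labels' protocols, RNA of 6 hindlimb bud samples was extracted with Trizol, treated with DNase I and turned into biotinylated cRNA for Illumina arrays. The authors deposited linear intensities for 25697 probes, of which 27.9% of values lie below 0 and all arrays have nearly the same distribution (medians of 17.8 to 17.9 units). The scanner software, background method and normalization are not given in the sources used here. A second deposited table, with 12 value columns, was not used because its headers number the columns without naming a sample.

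Intensities were corrected with normexp (offset 50) and converted to log2 in limma 3.58.1 (R 4.3.3). Background was 1.64 times the root mean square of the values below 0 (8.71 units), and 13720 probes above it on at least 3 arrays were tested. KO minus WT was fitted with genotype alone (lmFit, eBayes), two-sided, with Benjamini-Hochberg adjustment over all probes tested at 0.05. All 13 member probes kept their platform symbol after updating through Entrez identifiers (GRCm38.p6 names). A gene in a list was represented by its brightest tested probe. Groups of 3 against 3 cannot give an exact permutation p under 0.1, so none was run, and the number of arrays limits the precision. Members and lists were chosen with earlier results of these data known. Named genes are the members, Pitx1, up to 3 genes per pathway list with the smallest p, any list gene that passed, and the 5 most like Gdf5. Named outside this rule were list genes below background, Fst, Sostdc1, Grem1 and the chondrocyte genes described by array order or r with Gdf5. Tested on simulated data for KO minus WT (13720 probes, 20 simulations, 200 changed probes), the fit recovered 68.3% of changes of 0.5 and 99.9% of changes of 1 on the log2 scale. The simulated arrays were independent, and none stood apart as KO replicate 3 does. The members had a median SE of 0.14, against 0.10 over all probes, so these percentages do not give the recovery for them. Alternatives covered background, normalization, filter, variance model, array weights, a replicate block, each array left out and, for the lists, the mean over a gene's probes. Figures were drawn with matplotlib 3.10.9.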

Additional observations from a re-analysis of the deposited data

How the results depend on the processing

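Under all 16 alternatives 0 member probes passed in limma, and 0 to 3 of them had an unadjusted p under 0.05 (0 without KO replicate 3 and 0 without WT replicate 3). Of 143 refits of a member probe, 135 kept their direction and 8 reversed it. Without 1 array, Bmp4 ran from -0.018 (without KO replicate 3) to 0.38, Bmp5 from -0.16 to 0.027 (without KO replicate 3), Bmpr1b probe 1 from -0.074 to 0.12 and probe 4 from -0.20 to 0.091, and with values floored at the background threshold Bmpr1b probe 1 was at -0.0028. The count over all probes, 30 in the main setting, was 8 with an offset of 16, 4 with an offset of 100, 0 with the floor (951 at an unadjusted p under 0.05) and 84 with the replicate block, and with 1 array left out it was 91, 48 and 32 without KO replicates 1, 2 and 3, and 3, 4 and 0 without WT replicates 1, 2 and 3 (with 718, 913 and 710 reaching an unadjusted 0.05). The count of pathway list genes, 1 in the main setting, was 0 with an offset of 16 or 100, with the floor, with trended robust variances and with the mean over a gene's probes, and ran from 0 (without any 1 WT array) to 3 (without KO replicate 1). The cause was not tested. The genotypes share replicate numbers, and same-numbered deviations correlated at 0.23, 0.17 and -0.07. KO replicates 1 and 2 correlated best with the WT array of the same number, but KO replicate 3 did so with WT replicate 2. As the match did not hold for every replicate, the numbers were not used as a pairing in the main setting. The block changed no member call. Gdf6, Bmp2 and 2 Bmpr1b probes are limited by signal near background.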
